A study of Mus musculus with 7 samples.

Results

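The Cd28, Ctla4 and Icos locus is the stretch of mouse chromosome 1 from 60700000 to 61100000 (build mm9, 400 kb), which holds these 3 receptor genes in this order. Its members are all peak summits of the 3 deposited lists inside that window, 34 of 10739 summits in all. They comprise 19 IRF4 summits from wild-type (WT) regulatory T (Treg) cells, 14 IRF4 summits from RelA-deficient (p65KO) Treg cells and 1 p65 summit from WT Treg cells. The window was chosen by the measured positions of summits in these lists, so their number and crowding are given as a description without a test.

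All samples were Treg cells from the spleen on a C57BL/6 background, studied by chromatin immunoprecipitation sequencing (ChIP-seq) to find target genes of the transcription factors IRF4 and RelA, also called p65. IRF4 was precipitated from WT cells in 3 samples and from p65KO cells in 2 samples, in each case after 48 h with anti-CD3 and anti-CD28. For RelA there were 2 samples, both of WT cells, which had received PMA and ionomycin for 30 min. The labels give neither how RelA was deleted nor whether the samples came from separate animals. Each group came as 1 list, so no value has a replicate error, the read depth is unknown, and intervals cover only the counting of summits. A summit is the 1 bp top of a peak, and its score is the authors' −log10 significance. The lists were called without an input library and at different limits, which the list names give as q-values of 1e-06 (both IRF4 lists) and 0.05 (p65). The cell type was taken from the labels, since summits hold no expression of marker genes.

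CD28, CTLA-4 and ICOS are related receptors of the immunoglobulin superfamily on T cells. CD28 binds CD80 and CD86 on antigen-presenting cells and gives the co-stimulatory signal that accompanies the antigen receptor. CTLA-4 binds the same ligands more tightly and restrains T-cell activation, and Treg cells carry it constitutively and need it for suppression. ICOS binds a ligand of its own, is induced on activation and marks effector Treg cells. IRF4 is induced through the antigen receptor and binds DNA largely with partners such as BATF and JUN, whereas RelA is an activating subunit of canonical NF-κB. The stimulus used before the IRF4 precipitation engages the product of Cd28 itself.

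In the RefSeq gene table of build GRCm38.p6 the protein-coding genes follow each other as Raph1, Cd28, Ctla4, Icos and Pard3b. No gene model of build mm9 was used here, so a summit is given by its position within the window and is not assigned to a promoter, exon or intron of any of the 3 genes. No genome sequence of build mm9 was used either, so no sequence of a summit is printed.

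IRF4 summits were crowded at this locus in both genotypes. The 19 WT summits amounted to 47.5 per Mb, against 2.31 per Mb in the rest of chromosome 1 (444 summits over 192 Mb), a ratio of 20.5. The 14 p65KO summits amounted to 35.0 per Mb against 1.94 per Mb (373 summits), a ratio of 18.0. Among summits above their list's median score the order of the genotypes turned, with a ratio of 12.6 in WT (6 summits) and 24.6 in p65KO cells (9 summits). With the IRF4 lists cut to the same length by score it did not turn, at 22.4 in WT and 18.0 in p65KO cells. A difference between the genotypes in this ratio was not tested. The window took up 0.208% of the span between the first and last summit. It held 4.10% of the WT summits of the chromosome and 3.62% of the p65KO summits. Since the window was chosen by these positions, no interval is given for these shares. At the density of the rest of the chromosome, 0.925 WT and 0.777 p65KO summits would fall into a window of this length.

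No 400 kb of chromosome 1 that did not overlap the window held as many IRF4 summits of either genotype. When the chromosome was laid out in tiles of 400 kb starting from the window, 307 of the 481 other tiles (63.8%) held no WT summit, and the fullest held 11. That tile, from 145900000, had 9 p65KO summits. The next, from 87500000, 129100000 and 132700000, had 10 WT summits each, with 9, 10 and 5 in p65KO cells. Even where a 400 kb interval was placed to catch as many summits as possible outside the window, it caught 13 WT summits or 11 p65KO summits. Among 5988 other tiles of the placed autosomes, 1 had at least 19 WT summits. It lay on chromosome 5 from 14751422 and held 25 WT and 7 p65KO IRF4 summits beside 49 p65 summits. At least 14 p65KO summits were found in 2 tiles, one on chromosome 2 from 127991400 with 14 in each genotype and the other on chromosome 8 from 84004352 with 17 in WT and 15 in p65KO cells. These tiles of chromosomes 2 and 8 held 0 and 1 p65 summit, and the window held 1.

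**Figure D1:**
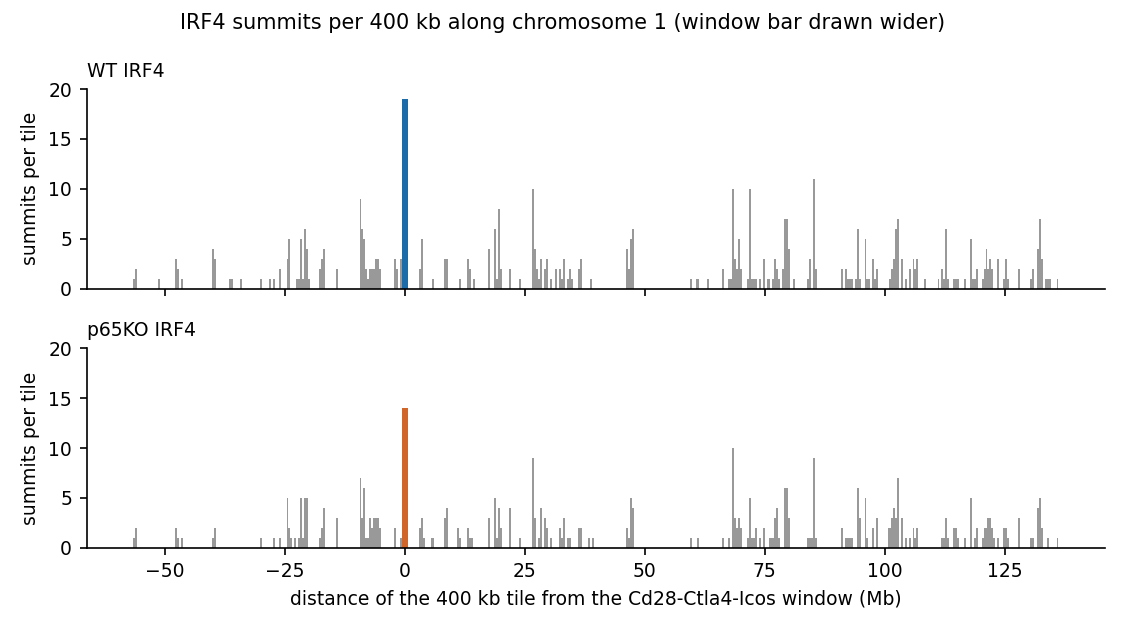
Number of IRF4 summits in each 400 kb tile of chromosome 1 (y axis) against the distance of the tile from the Cd28-Ctla4-Icos window in Mb (x axis), for the WT list (top) and the p65KO list (bottom). The coloured bar, drawn wider than the others, is the window with 19 and 14 summits, and grey bars are the other 481 tiles, of which the fullest held 11 and 10.

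In neither genotype were the scores of the window uniformly high, and only the p65KO median lay above that of its list. The median WT score in the window was 24.4 (range 12.9 to 82.4), beside 26.3 over the whole WT list and 27.6 over the rest of chromosome 1. Of the 19 WT summits, 6 lay above the list's median and 5 above its upper quartile of 43.7. The p65KO summits of the window had a median of 38.4 (17.6 to 85.3), beside 27.3 over their list and 26.2 over the rest of chromosome 1. Of these 14 summits, 9 lay above the p65KO list's median and 5 above its upper quartile of 45.0. The 14 WT summits of the window with a p65KO summit within 200 bp had a median WT score of 26.2. The highest WT summit of the window ranked 464 of 5630 in its list, and the highest p65KO summit ranked 369 of 4312.

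Along the locus the summits fell into runs, described here with a joining distance of 25 kb that was chosen after the positions were seen. At the Cd28 end of the window the first WT summit, at 60734371, scored 21.5. Its p65KO partner lay 12 bp away with a score of 19.2. A run of 4 WT summits then extended over 27.4 kb from 60801381 to 60828801. Its last summit, at 60828801, was the strong one, with a score of 71.7 in WT (rank 618 in the list) and 69.5 at 60828807 in p65KO cells (rank 543). The other 3 were weak, with scores of 17.2, 18.8 and 19.4 at 60801381, 60816669 and 60818561, and the last of these alone had a p65KO partner, which scored 17.6. A single weak WT summit followed at 60890742 with a score of 13.0.

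The middle of the window held the longest run, 10 WT and 8 p65KO summits between 60932400 and 60996002. It contained 4 of the 5 WT summits above the upper quartile, the other being that at 60828801, and each of them had a summit in both genotypes. At 60956283 the score was 53.2 in WT and 64.1 in p65KO cells, with the summits 2 bp apart. At 60962570 it was 62.8 and 72.6, with the summits 3 bp apart. At 60970379 the summit fell on the same base in both lists, with scores of 67.5 and 85.3, the latter the highest p65KO score of the window. These 3 sites spanned 14.1 kb, and at each the p65KO score was the higher value. That was so in 8 of the 14 summit pairs of the window and in 42.2% of all summits shared by both genotypes. The highest WT score of the window stood 17.0 kb further on at 60987367, at 82.4 (rank 464), where the p65KO summit 22 bp away scored 36.0 (rank 1506).

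The remaining summits of this run were lower. Those at 60932400 (23.9) and 60944095 (12.9) were called in WT cells without a p65KO partner. The summit at 60943595, 500 bp before the latter, scored 24.4 and had a p65KO partner 63 bp away at 25.9. The summit at 60965782 scored 24.9 in WT and 42.8 in p65KO cells, and that at 60993919 scored 26.2 and 24.2. The last of the run, at 60995989, scored 37.5 and 53.4. Beyond it, towards the far end of the window, single or paired summits stood at 61033889 (23.0 and 31.3), 61079973 (24.1 and 20.1) and 61083755 (26.1 and 40.9).

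**Figure D2:**
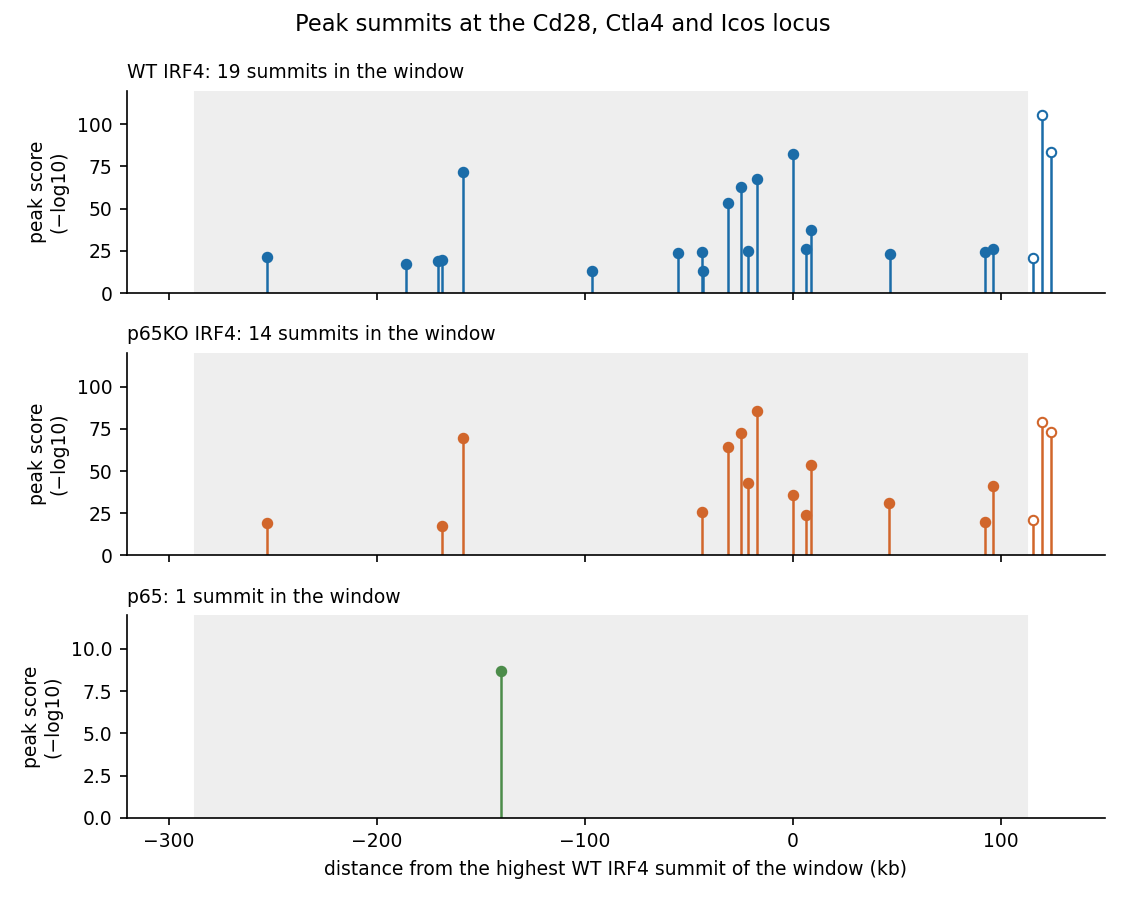
Score of each summit (y axis, −log10 significance) against its distance in kb from the highest WT IRF4 summit of the window (x axis), in the WT IRF4, p65KO IRF4 and p65 lists from top to bottom. Grey marks the window, filled points its 19, 14 and 1 summits, and open points those just outside it, and the p65 panel has its own, smaller scale.

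The crowd of IRF4 summits ran on past the upper edge of the window. Just inside that edge, 61083755 scored 26.1 in WT cells. Just outside it, 2.93, 7.34 and 11.5 kb beyond, WT summits at 61102929, 61107336 and 61111515 scored 20.8, 105.7 and 83.6. The p65KO list had summits at 61102848, 61107347 and 61111553 with scores of 20.9, 79.1 and 72.9. The WT scores at 61107336 and 61111515 were above every WT score of the window, while the p65KO scores there were under the window's highest p65KO score of 85.3. On the Cd28 side the nearest WT summit outside lay 403 kb below the edge, at 60297445 with a score of 16.5, and the nearest p65KO summit 627 kb below it.

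The comparison of genotypes asked whether the IRF4 summits at these genes were also found in cells without RelA. Every one of the 14 p65KO summits of the window had a WT partner, a summit of the other list within 200 bp that was its mutual nearest neighbour (95% Wilson interval 78.5 to 100%). Over the whole p65KO list 84.1% of summits had one, and over the rest of chromosome 1 82.3% did, and both shares lie within the interval. In the other direction 14 of the 19 WT summits had a p65KO partner (73.7%, 51.2 to 88.2), beside 64.4% of the whole WT list and 69.1% of the rest of chromosome 1. These background shares also lie within the interval, which covers only the counting of summits. Both directions count the same 14 pairs, so they are not separate checks, and a difference from the background was not tested. Partners lay between 0 and 63 bp apart, with a median of 14 bp against 17 bp over all 3625 shared pairs.

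The 5 WT summits without a partner were among the weak ones. They stood at 60801381, 60816669, 60890742, 60932400 and 60944095, with scores between 12.9 and 23.9, all under the median of the WT list. All 6 WT summits above that median had a partner, as did 86.7% of such summits in the list. Of the 13 at or under it, 8 had one (61.5%, 35.5 to 82.3), against 42.0% in the list. The nearest p65KO summit to 60944095 was 437 bp away and was the partner of its neighbour at 60943595. For 60890742 the nearest was 52916 bp away.

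The highest WT site of the locus had a middling score in p65KO cells, while the other strong sites were strong in both. Because scores of 2 lists of unknown depth need not share a scale, each of the 14 pairs was given its percentile among the same 3625 shared pairs, separately in each genotype. The 2 weakest pairs, at 60734371 and 60818561, ranked 13th and 14th of the 14 in both genotypes and stood at the 21.0 and 15.9 percentile in WT and the 20.5 and 15.1 percentile in p65KO cells. The strong site at 60828801 stood at 83.1 and 85.1. Those at 60956283, 60962570 and 60970379 stood at 72.3, 78.9 and 81.2 in WT and at 82.7, 86.2 and 89.9 in p65KO cells. The site at 60987367 ranked first of the 14 in WT and 8th in p65KO cells, and went from the 87.3 to the 58.9 percentile. A shift downward at least this far was seen in 306 of all 3625 pairs (8.44%), a share not limited to pairs of a similar WT percentile. This site was singled out after its values were seen.

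More of the other sites stood higher in p65KO than in WT cells. The percentile was higher in 10 of the 14 pairs (71.4%, 45.4 to 88.3) and in 51.0% of all shared pairs, a share that lies within the interval. In the longest run it was higher in 7 of 8 pairs, the exception being 60987367. The rise was widest at 60965782, from the 29.2 to the 68.2 percentile, and 118 of all pairs (3.26%) rose at least as far. Next came 61083755, from 32.2 to 65.8 (192 pairs, 5.30%), and 61033889, from 24.5 to 51.0 (326 pairs, 8.99%). The site at 60995989 went from 54.4 to 76.8, that at 60943595 from 28.2 to 39.2 and that at 60993919 from 32.4 to 35.0. The site at 61079973 stood lower in p65KO cells, at 22.5 against 27.4. Shifts of at least 20 points in either direction occurred in 5 of the 14 pairs and in 29.8% of all pairs. With 1 list per genotype, none of these shifts can be set against the spread between samples. The window's pairs also started low in WT cells, with a median percentile of 32.3 beside 52.5 in the rest of chromosome 1. Low pairs have more room to rise on this scale, so all pairs are not a like background for these shares. Whether pairs of a similar WT percentile rose as often or as far was not tested.

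**Figure D3:**
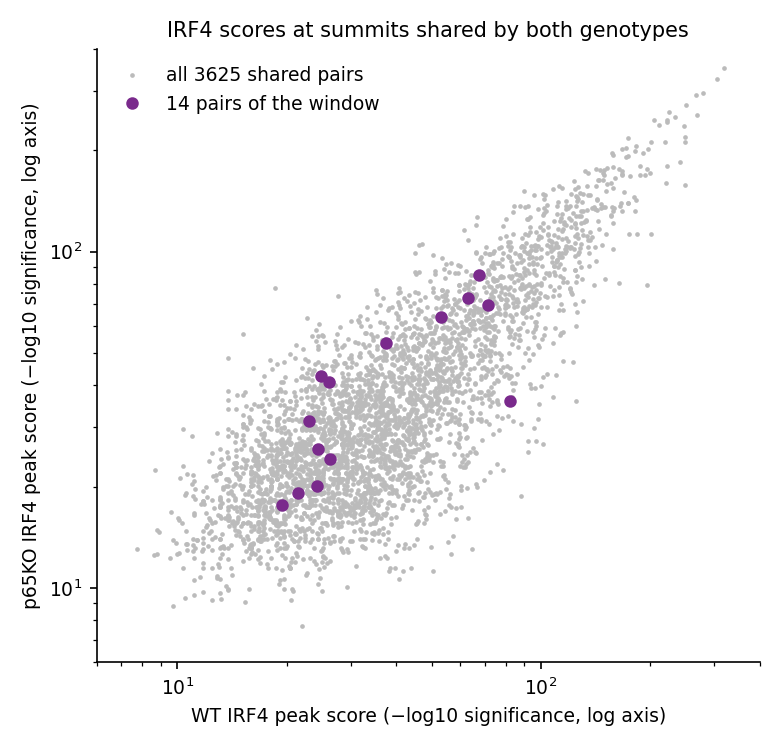
IRF4 score in p65KO cells (y axis, −log10 significance, log axis) against the score in WT cells (x axis, log axis) at summits shared by both genotypes. Purple points are the 14 pairs of the window and grey points all 3625 pairs, and the purple point lowest relative to the grey cloud, at 82.4 and 36.0, is the site at 60987367.

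**Figure D4:**
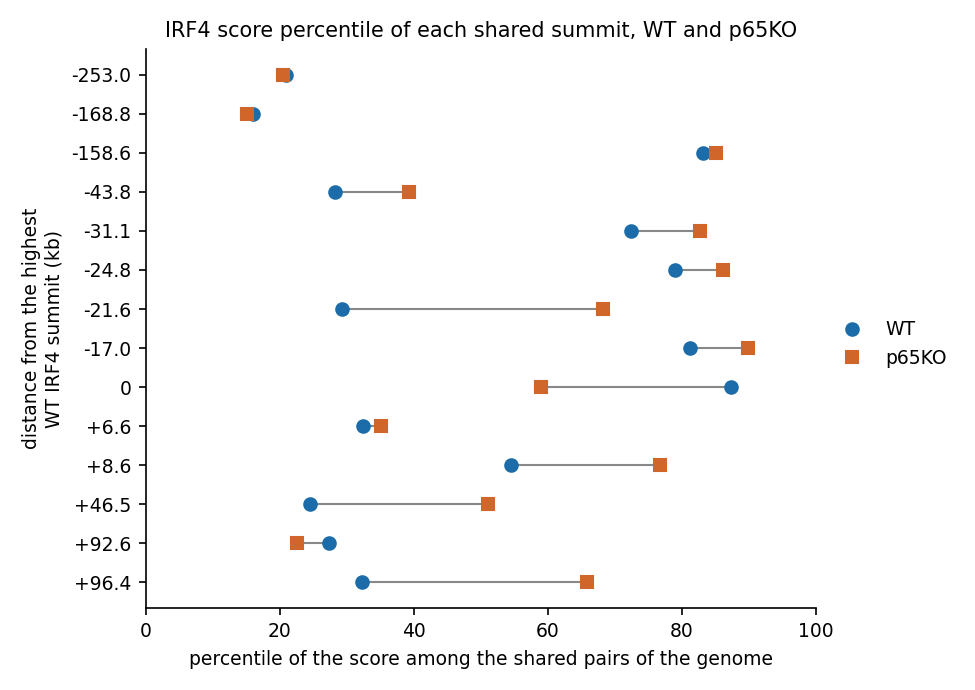
Percentile of the IRF4 score among the 3625 shared pairs (x axis) in WT (circles) and p65KO cells (squares) for the 14 pairs of the window, ordered by position and labelled with their distance in kb from the highest WT summit (y axis). In 10 pairs the square lies to the right of the circle, and the widest leftward step, from 87.3 to 58.9, is at distance 0.

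The last comparison asked whether RelA itself was found at the locus. The p65 list had 1 summit in the window, at 60847004, with a score of 8.73. This was under the p65 list's median of 9.61 (rank 436 of 797) and ranked 12 among the 30 p65 summits of chromosome 1. It stood between the strong IRF4 site at 60828801, 18203 bp below it, and the weak WT summit at 60890742. The next p65 summits on the chromosome lay 8143 kb below the lower and 3479 kb above the upper edge of the window. A tile of 400 kb held at least 1 p65 summit in 16 of the other 481 cases, so p65 summits were sparse along the whole chromosome. The 1 p65 summit amounted to 2.5 per Mb, against 0.151 per Mb in the rest of chromosome 1 (29 summits), a ratio of 16.6. Resting on 1 summit, this ratio does not show crowding of p65.

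None of the IRF4 summits of the locus coincided with p65. Of the 19 WT summits 0 had a p65 summit within 200 bp, which allows a share of up to 15.8%, and of the 14 p65KO summits 0 had one, which allows up to 21.4%. Over the whole lists 4.0% of WT and 4.15% of p65KO IRF4 summits had a p65 summit within that distance, so a count of 0 here does not set the locus apart. Of all p65 summits 28.2% had a WT IRF4 summit within 200 bp, but on chromosome 1 only 3 of 30 did. The p65 summit of this locus was not among them. Since RelA was mapped after another stimulus and at another time than IRF4, these data do not show where RelA stood at the locus in the cells of the IRF4 lists.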

How the data were processed

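Per the submitters' processing notes, MACS2 2.1.0, Subread and featureCounts were used with build mm9; neither their settings nor the way samples of a group were combined is stated. The authors deposited 1 summit list per group, and the deposited score is a −log10 value of a p-value or q-value (which of them is not stated). Peak names state that no input was used, per the lists. Positions were read 1-based from column 3. Partners were summits of the other list within 200 bp, mutual nearest neighbours between the IRF4 lists. Densities were compared with the rest of chromosome 1 between its first and last summit. Matching and counting were tested on simulated data. All summits of the window were named. The window, members and descriptions were chosen with earlier results of these data known, and no significance test was run. The RefSeq tables (GRCm38.p6) held all 3 genes, and a promoter for 1 of them, Ctla4, and served only for gene order. The motif search planned for an mm9 genome was not run. Alternatives were other windows, matching distances, score limits and list lengths. Scripts ran in Python 3.11.15 (pandas 2.3.3, scipy 1.17.1, numpy 2.4.6, matplotlib 3.10.9).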

Additional observations from a re-analysis of the deposited data

How the results depend on the processing

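Of 53 recomputed values, 47 stayed within 1.5 times the count or within a 95% interval of the value given. For density ratios this was a counting interval, used only as a yardstick. For median scores it was an interval of the median, from 19.4 to 53.2 in WT and from 20.1 to 69.5 in p65KO cells. Intervals this wide could hardly show a shift. The other 6 recomputed values all came from keeping the summits above each list's median score. This limit leaves fewer summits by construction. It cuts the rest of chromosome 1 as well, so the lower WT density ratio does not follow from it by construction. The window then held 6 WT IRF4, 9 p65KO IRF4 and 0 p65 summits, 6 WT and 6 p65KO summits had a partner, and the density ratio was 12.6 in WT and 24.6 in p65KO cells, the opposite order to the 20.5 and 18.0 of the full lists. With that limit 3 of the 9 p65KO summits lost their partner, which lay under the WT median. With the IRF4 lists cut to the same length by score the order was that of the full lists, at 22.4 and 18.0. Across the alternatives the density ratio ranged from 12.6 to 22.9 in WT and from 14.7 to 24.6 in p65KO cells. No p65 summit lay within 10 kb of a WT IRF4 summit of the window. No paired analysis was possible because each group came as 1 list without values per replicate, and leaving out a replicate could not be run for the same reason. Read depth is unknown and limits every comparison of scores between lists.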
